A study of Homo sapiens with 36 samples.

Results

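ATF3, DUSP4 and IGF2BP3 are 3 of 20162 protein-coding genes of the human annotation, and they were picked by their PHF19 signal in DU145 cells. The rule asked for a PHF19 region whose mean log2 read concentration in the ChIP was more than 3 above that in the input, together with a small change of EZH2 and MTF2 after depletion of PHF19. All 3 genes had such a region in the window that was examined, from 20 kb upstream of the gene start to the gene end. ATF3 encodes a stress-induced bZIP transcription factor of the ATF/CREB family. DUSP4 encodes a dual-specificity phosphatase that inactivates MAP kinases in the nucleus. IGF2BP3 encodes an RNA-binding protein that binds IGF2 mRNA and is best known from embryonic tissue and tumors.

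DU145 is a prostate cancer cell line that was derived from a brain metastasis. Cells of both groups were transduced with lentiviral pLKO vectors and selected with puromycin, a control vector in shCTR cells and 1 hairpin against the long isoform of PHF19 in the depleted cells (shPHF19L#4). The sources used here do not settle whether the control vector held a hairpin. ChIP-seq peaks were read from 14 deposited lists, of PHF19, EZH2 and SUZ12 in shCTR cells and of H3K27me3 and MTF2 in both groups, with 2 replicates of each, and 5 tables gave mean read concentrations of merged regions. Each concentration is the authors' mean over the replicates of a group on the log2 scale, and the tables hold no value per replicate, so the order of neighbouring values cannot be set against a spread. The lists hold no read totals, so sequencing depth is not known.

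PRC2 is a Polycomb complex that methylates histone H3 at lysine 27, and genes that carry the resulting H3K27me3 mark are usually silent. EZH2 is its catalytic subunit and SUZ12 a core subunit. PHF19 and MTF2 are related Polycomb-like proteins that join PRC2, recognise methylated H3K36 through a Tudor domain and bind DNA with unmethylated CpG.

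Because Polycomb-like proteins bind CpG, the 200 bases richest in CpG outside annotated exons are shown for the PHF19 regions of ATF3 and IGF2BP3. They are given 5′ to 3′ on the strand of the gene in hg19 (GRCh37), with each CpG in capitals. The ATF3 sequence (chr1:212780148-212780347, plus strand) lay 1955 to 1756 bp upstream of the canonical start site, in an intron of the longer ATF3 transcripts, and held 27 CpG. The sequence of the leading IGF2BP3 region (chr7:23510774-23510973, minus strand) lay 863 to 664 bp upstream of the start site and also held 27. That of the upstream IGF2BP3 region (chr7:23513580-23513779, minus strand) lay 3669 to 3470 bp upstream and held 30.
ATF3 region: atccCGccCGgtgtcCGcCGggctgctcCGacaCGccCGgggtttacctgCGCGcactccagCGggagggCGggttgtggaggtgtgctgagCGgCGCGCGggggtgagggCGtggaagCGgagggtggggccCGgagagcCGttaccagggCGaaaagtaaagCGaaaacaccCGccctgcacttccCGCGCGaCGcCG
IGF2BP3 leading region: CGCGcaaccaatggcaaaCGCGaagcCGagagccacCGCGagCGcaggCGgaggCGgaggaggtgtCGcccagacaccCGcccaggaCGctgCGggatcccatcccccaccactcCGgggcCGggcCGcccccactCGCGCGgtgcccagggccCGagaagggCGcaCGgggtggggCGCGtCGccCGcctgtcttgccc
IGF2BP3 upstream region: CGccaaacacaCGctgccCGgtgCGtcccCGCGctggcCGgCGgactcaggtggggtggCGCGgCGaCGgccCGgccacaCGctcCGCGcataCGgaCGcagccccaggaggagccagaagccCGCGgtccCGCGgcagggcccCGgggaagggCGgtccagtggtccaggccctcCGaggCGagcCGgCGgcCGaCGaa

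ATF3 was also measured by ChIP-qPCR in the study, and the amplicon is shown because it places that assay within the region. It matched hg19 at 1 place (chr1:212780475-212780595, plus strand), 1628 to 1508 bp upstream of the canonical start site. The 121 bases held 4 CpG and lay inside the PHF19 region, and a peak of each of the 14 lists ran over them. With this assay the paper reports more EZH2, H3K27me3 and MTF2 signal after depletion at the PHF19L targets it evaluated. Its values for single sites were not used here. The capitals mark the primer sites.
ATF3 amplicon: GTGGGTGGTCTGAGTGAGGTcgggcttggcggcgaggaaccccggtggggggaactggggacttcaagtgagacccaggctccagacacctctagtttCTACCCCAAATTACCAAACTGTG

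PHF19 concentrations at these genes were among the highest of the table, which is how the genes were chosen. The table held 1245 regions with a median difference over input of 1.58, and 49 of them (3.94%) had a difference above 3, of which 4 lay at these genes. At ATF3 the mean log2 concentration was 10.08 in the PHF19 ChIP and 5.95 in the input, a difference of 4.13 (17.5-fold) that ranked 6 of 1245. At the leading IGF2BP3 region the values were 10.44 and 6.40, a difference of 4.04 (16.4-fold) and rank 7. DUSP4 had the smallest difference of the 3 genes, 3.17 (9.0-fold, rank 33). Its ChIP concentration of 9.91 was close to that of ATF3, while its input concentration of 6.74 was the highest of the 3 and above the table's median input of 4.82. The other IGF2BP3 region, further upstream, had a ChIP concentration of 8.87 and a difference of 3.55 (rank 15).

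**Figure D1:**
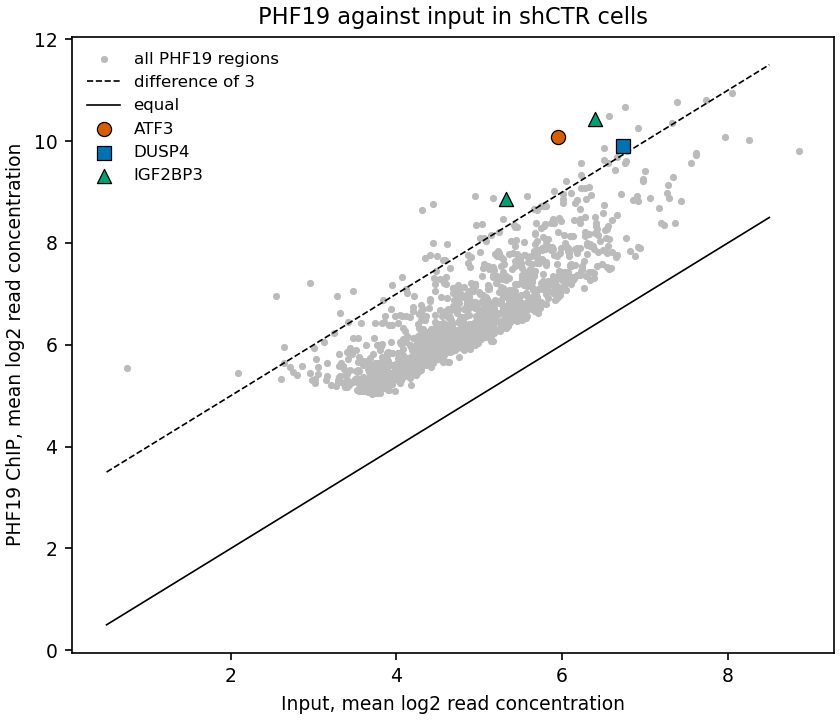
Mean log2 read concentration of the PHF19 ChIP (vertical) against input (horizontal) in shCTR cells, 1 point for each of 1245 regions, with the regions of ATF3, DUSP4 and IGF2BP3 coloured. The dashed line marks a difference of 3 and the solid line equal values, and the DUSP4 point, with a difference of 3.17, sits closest to the dashed line.

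Just above the threshold were regions whose nearest start sites were those of CLVS1 (3.01), BMP4 and MAFA (3.02 each), GFI1 (3.03) and, tied at 3.04, FCGR3B, ONECUT2, SLC40A1 and FOXC1. At or just below it were regions nearest to RRP15 (equal to the threshold) and to MECOM, VGLL2 and ANKRD30BL (2.99 each). Another region in the window of MECOM had a difference of 3.34, above the threshold. The nearest start site can be far away. It lay 147402 bp from the middle of the region at CLVS1, 120652 bp at RRP15 and 123507 bp at ANKRD30BL.

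The 3 genes differed in where PHF19 sat relative to the start site. The ATF3 region (chr1:212777347-212782010, 4664 bp) ended 93 bp upstream of the canonical start site, and it held no annotated exon. The gene starts 43427 bp further upstream for its longest transcripts, so the region is intronic in those and promoter-proximal for the canonical one. The leading IGF2BP3 region (chr7:23506480-23512292, 5813 bp) ran from 2182 bp upstream of the start site to 3630 bp into the gene, and 17.9% of it was exon. The upstream IGF2BP3 region (chr7:23512381-23515553, 3173 bp) began only after a short gap and covered a lncRNA gene, ENSG00000289109. The DUSP4 region (chr8:29205033-29211796, 6764 bp) was the longest, against a median of 2298 bp in the table. It ran from 3595 bp upstream of the start site to 3168 bp into the gene, and 42.1% of it was exon of DUSP4 or of 2 lncRNA genes, ENSG00000285601 and ENSG00000260253, that lie upstream. The ChIP-qPCR amplicon of DUSP4 (chr8:29210256-29210443) lay inside this region, 2242 to 2055 bp upstream, and all 14 lists had a peak over it.

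All 14 lists had a peak in the window of each gene. The peaks at IGF2BP3 covered its start site in 14 of 14 lists. At ATF3 the canonical start site was covered in 4 of 14, and those 4 were the MTF2 lists. At DUSP4 it was covered in 8 of 14, by both PHF19 lists, all 4 MTF2 lists, 1 of 2 EZH2 lists, 1 of 4 H3K27me3 lists and neither SUZ12 list. The lists differed in size. Of all start sites of protein-coding genes, the MTF2 lists covered 3.43% and 6.98% in replicate 1 (shCTR and shPHF19L#4) and 29.5% and 34.9% in replicate 2. The EZH2 lists covered 1.71% and 3.46% in replicates 1 and 2, the PHF19 lists 1.96% and 6.64%, and the SUZ12 lists 0.23% and 0.496%. The part of list size in these counts was not tested. The map of peaks shows that the other lists left the ATF3 start site uncovered. The H3K27me3 lists and the PHF19 list of replicate 2 had peaks on both sides of it. The EZH2 and SUZ12 lists and the PHF19 list of replicate 1 had peaks only upstream of it. The merged EZH2 region at ATF3, used below for the change after depletion, ran from 5728 bp upstream of that site to 1689 bp downstream. The shPHF19L#4 peaks of EZH2 were not analysed here.

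**Figure D2:**
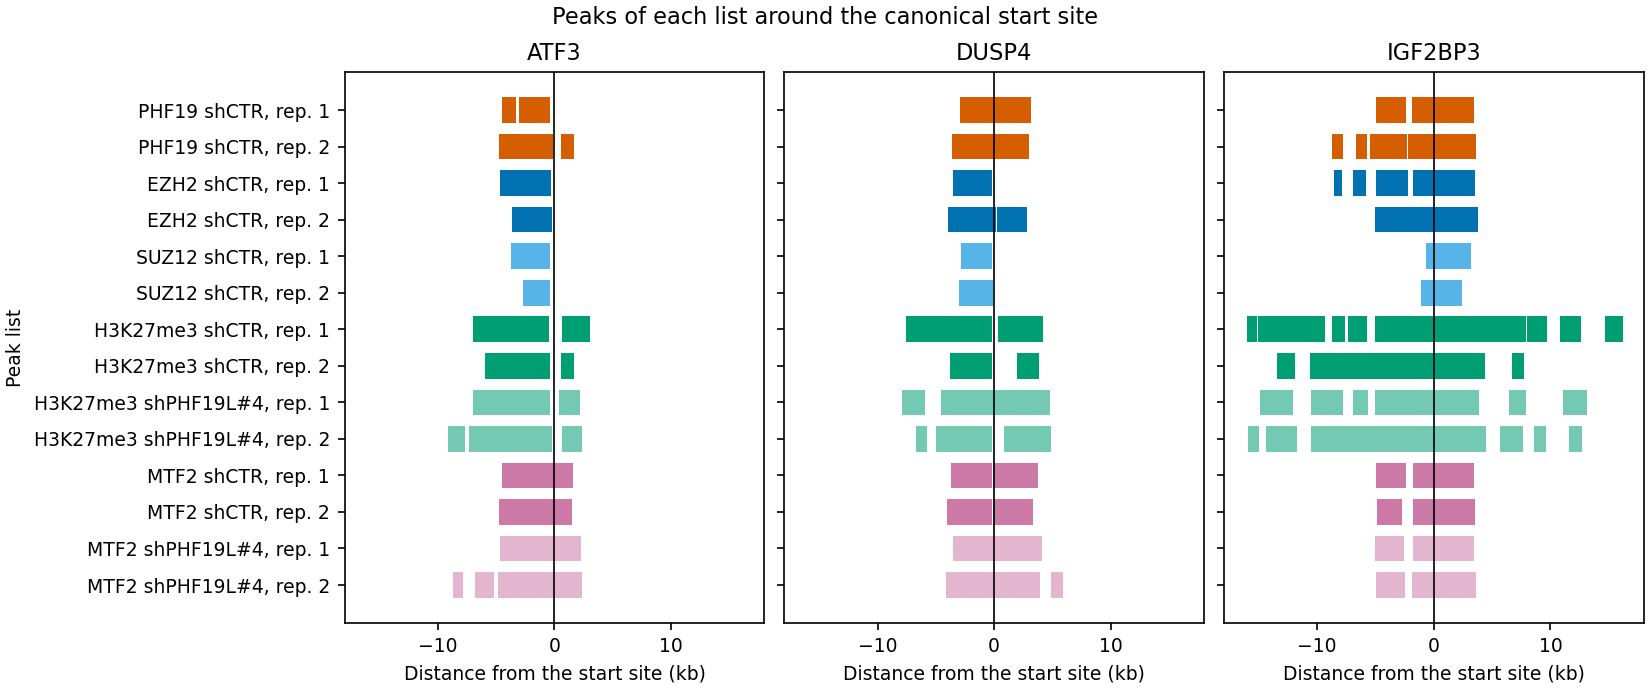
Peaks of the 14 lists (rows) as bars, by distance in kb from the canonical start site (vertical line) in the direction of transcription, for ATF3, DUSP4 and IGF2BP3, with peaks of shPHF19L#4 cells in lighter colours. Bars cross the line in 4 rows at ATF3, 8 at DUSP4 and 14 at IGF2BP3, and the few peaks that lie further away are not drawn.

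In the PHF19 lists each replicate carries its own kind of value, tags per peak in replicate 1 and a MACS score in replicate 2. The main PHF19 peaks held 559 tags at ATF3, 586 at DUSP4 and 832 at IGF2BP3, in a list with a median of 53 and a highest value of 1035. Smaller peaks in the same list held 32 tags at ATF3 and 262 at the upstream IGF2BP3 region. In replicate 2 the main peak of every gene, and the upstream IGF2BP3 peak, had a score of 3100.00. That value was shared by 47 peaks of the list, with 5 above it, and hides any order among the 47. Replicate 2 alone had further weak PHF19 peaks, such as one from 521 to 1695 bp downstream of the canonical ATF3 start site with a score of 71.83.

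EZH2 peaks at the 3 genes were near the top of both shCTR lists. At IGF2BP3 the highest score was 1033.77 in replicate 1 and 3001.16 in replicate 2, at DUSP4 1133.30 and 1768.01, and at ATF3 525.06 and 1148.51. The ATF3 scores were the lowest of the 3 genes in each replicate, yet higher than those of 98.2% and 96.6% of the peaks of their lists. In replicate 2, EZH2 at IGF2BP3 formed 1 peak of 8836 bp that joined both PHF19 regions, whereas replicate 1 had 4 separate peaks in the window.

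The main SUZ12 peaks were narrower than those of EZH2 at each gene in both replicates. IGF2BP3 had scores of 199.56 and 460.08 in replicates 1 and 2, DUSP4 169.74 and 431.49, and ATF3 94.93 and 253.62. The order of the genes was the same in both replicates, with ATF3 lowest, as for EZH2. Each SUZ12 list had 1 peak per gene. At ATF3 it covered 72.4% and 49.5% of the PHF19 region, at IGF2BP3 65.4% and 59.4% and at DUSP4 39.8% and 42.0%. At DUSP4 both SUZ12 peaks stopped short of the start site, so the part of the PHF19 region inside the gene had none.

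H3K27me3 peaks were broadest at IGF2BP3. In shCTR cells the main peak at IGF2BP3 was 9298 bp long with a score of 1834.14 in replicate 1, and 14925 bp with a score of 3100.00 in replicate 2. ATF3 had main peaks of 6550 and 5544 bp with scores of 1317.31 and 1698.89. DUSP4 had main peaks of 7406 and 3607 bp with scores of 1408.98 and 1377.09. The ATF3 peaks ended 447 and 399 bp upstream of the canonical start site, and a weak peak began 607 and 527 bp downstream of it, with scores of 57.95 and 68.04. DUSP4 had the same form, with the main peaks ending 181 and 178 bp upstream and weaker peaks of 51.40 and 176.97 inside the gene. Of 19540 start sites of protein-coding genes, an H3K27me3 peak covered 9.39% in replicate 1 and 5.46% in replicate 2, and of the 3 genes it covered that of IGF2BP3.

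At DUSP4 the position 181 bp upstream of the start site (29208382 on chromosome 8) was the exact edge of a peak in 4 of 14 lists, EZH2 and MTF2 in shCTR cells and H3K27me3 in both groups, all of replicate 1. MTF2 peaks lay on both sides of a narrow gap there. In shCTR replicate 1 the gene-side peak ended 106 bp upstream and the other began 181 bp upstream. In replicate 2 the gene-side peak had a score of 1943.92 and the upstream peak 3100.00. In shPHF19L#4 replicate 1 the gap remained, from 164 to 196 bp upstream, and in replicate 2 a single MTF2 peak of 8034 bp ran over it.

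The change after depletion is the mean log2 concentration in shPHF19L#4 cells minus that in shCTR cells. The tables list only regions that passed the authors' P value threshold, so a region that is absent is not shown to be unchanged. The methods name no spike-in scaling for these tables. Since EZH2 and MTF2 changes were part of the rule, the ranks below describe the choice of the genes.

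EZH2 concentrations were higher after depletion at the main region of each gene, by less than at nearly all other regions. The value at ATF3 went from 8.68 to 9.13, a change of 0.45 (1.37-fold, rank 13 of 2408 from the smallest). At DUSP4 it went from 8.89 to 9.42, a change of 0.53 (1.44-fold, rank 47), and at IGF2BP3 from 9.63 to 9.92, a change of 0.29 (1.22-fold, rank 3). The median change of the table was 1.16, with quartiles of 0.96 and 1.36. At least a 2-fold increase was listed at 1708 of 2408 regions (70.9%) and at none of the regions of these genes. Their shCTR concentrations ranked 51 (ATF3), 36 (DUSP4) and 11 (IGF2BP3) from the highest. The 243 regions in the top 10% by shCTR concentration had a median change of 1.10, also above the changes at the 3 genes.

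A further EZH2 region upstream of IGF2BP3 (chr7:23515964-23517007, 1044 bp) was the single EZH2 region of 2408 with a lower concentration after depletion. It went from 5.32 to 4.25, a change of -1.07 (0.476-fold), and lay 6897 to 5854 bp upstream of the start site. Its edges were exactly those of an EZH2 peak of shCTR replicate 1 with a score of 126.78, and replicate 2 had no EZH2 peak there. H3K27me3 peaks over it in replicate 1 had scores of 333.02 in shCTR and 164.23 in shPHF19L#4 cells, and in replicate 2 the broad IGF2BP3 peak of both groups included it. A weak PHF19 peak of replicate 2 (55.36) also reached it, and no MTF2 peak did. With both EZH2 regions of the IGF2BP3 window averaged by width, the change was 0.15 in place of 0.29. The region held 1 CpG in its 1044 bases, with a GC content of 34.9%. The 200 bases that begin with this CpG (chr7:23516741-23516940, minus strand, intergenic, CpG in capitals) are shown as a contrast to the PHF19 regions.
IGF2BP3 region with lower EZH2: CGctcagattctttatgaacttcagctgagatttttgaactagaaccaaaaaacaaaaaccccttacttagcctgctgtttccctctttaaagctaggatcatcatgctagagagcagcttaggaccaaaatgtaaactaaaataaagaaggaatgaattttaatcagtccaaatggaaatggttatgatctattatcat

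Changes of MTF2 were also small and came in the same order of genes as those of EZH2. IGF2BP3 went from 10.60 to 10.95, a change of 0.35 (1.27-fold, rank 15 of 2546 from the smallest), and ATF3 from 10.24 to 10.63, a change of 0.39 (1.31-fold, rank 23). At DUSP4 the upstream region went from 10.15 to 10.63, a change of 0.48 (1.39-fold, rank 79). The gene-side region of DUSP4 went from 8.69 to 9.44, a change of 0.75 (1.68-fold), nearer to the table's median of 0.87. An increase of at least 2-fold was listed at 730 of 2546 regions (28.7%) and at none of the regions of these genes, and 7 regions of the table were lower. As for EZH2, the 258 regions most occupied in shCTR cells had a median change close to that of the whole table, 0.85.

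**Figure D3:**
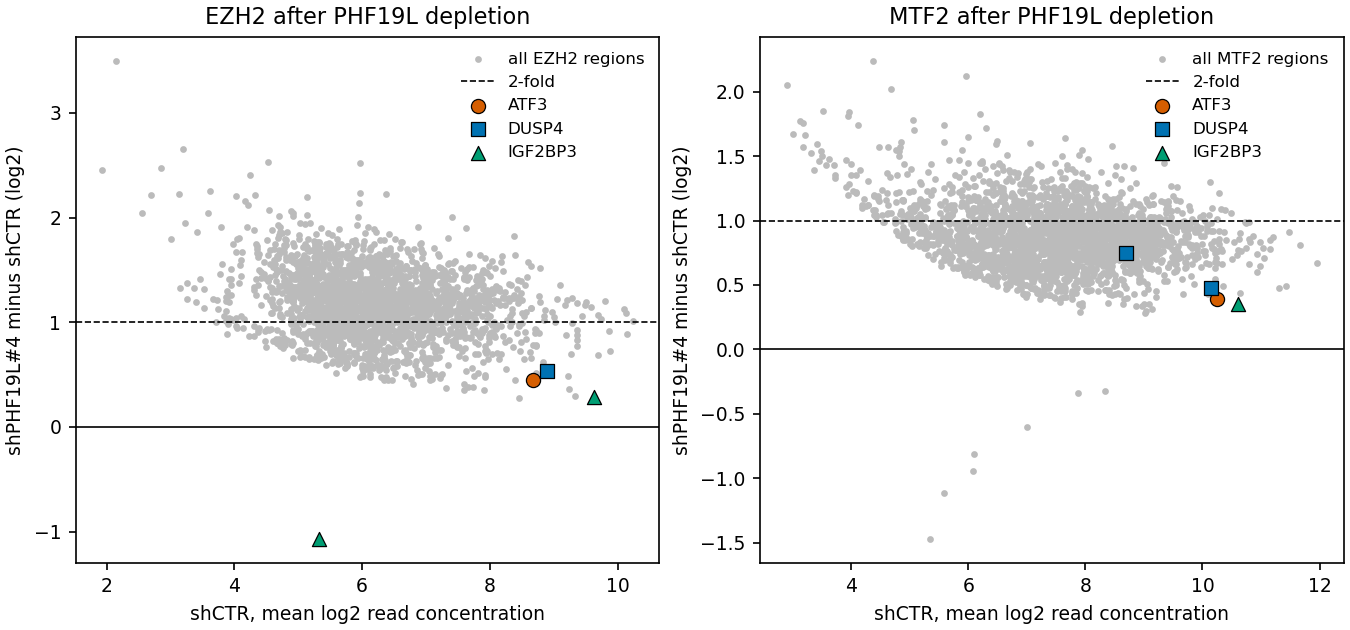
Change of the mean log2 concentration after depletion (vertical) against the concentration in shCTR cells (horizontal), 1 point per region, for EZH2 (2408 regions) and MTF2 (2546 regions). The main regions of the 3 genes lie at the lower right with changes from 0.29 to 0.53, and the IGF2BP3 triangle at -1.07 is the EZH2 region that was lower.

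The SUZ12 and H3K27me3 tables listed no region at any of the 3 genes. They held 508 and 1049 regions, with median changes of 0.96 and 1.13 and increases of at least 2-fold at 45.9% and 82.0% of them. Among protein-coding genes, a SUZ12 region was listed in the window of 2.92% and an H3K27me3 region in that of 4.68%. The corresponding shares were 5.55% for PHF19, 11.5% for EZH2 and 10.9% for MTF2. Of all 49 regions with a PHF19 difference above 3, those of the 3 genes included, 40 (81.6%) overlapped an EZH2 region with a median change of 0.76, 40 an MTF2 region with a median change of 0.60, 13 (26.5%) a SUZ12 region and 0 an H3K27me3 region. Of all 1245 PHF19 regions, 75.6% overlapped an EZH2 region, 73.3% an MTF2 region, 31.5% a SUZ12 region and 2.65% an H3K27me3 region.

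H3K27me3 was therefore compared between the groups through the length that peaks covered in each window, a measure the rule did not use. The replicates differed. In replicate 1 the covered length went from 8954 to 8375 bp at ATF3, from 11260 to 11309 bp at DUSP4 and from 27315 to 19407 bp at IGF2BP3. In replicate 2 it went from 6660 to 10355 bp at ATF3, from 5533 to 9888 bp at DUSP4 and from 17540 to 22621 bp at IGF2BP3. The nearly equal lengths at DUSP4 in replicate 1 rested on weak peaks. With a score of at least 100 they were 7406 and 4399 bp in replicate 1 and 5533 and 8886 bp in replicate 2. Covered length was thus longer after depletion at each gene in replicate 2 and not clearly so in replicate 1. The length covered by the whole lists went from 108 to 96.9 Mb in replicate 1 and from 30.4 to 159 Mb in replicate 2, so it was shorter in replicate 1 and longer in replicate 2. The part of this difference between lists in the values of the genes was not tested.

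The mean log2 ratio of H3K27me3 covered length, shPHF19L#4 to shCTR, was 0.27 ± 0.52 at ATF3, 0.42 ± 0.59 at DUSP4 and -0.06 ± 0.61 at IGF2BP3 (SD, n = 2). Each mean lay within its spread between replicates. With 2 replicates a group an exact permutation test cannot give a p below 0.333, and none was run. Against all genes with peaks in both groups, the replicate 2 ratios were low. There 99.0% of 3829 genes had a longer covered length. The median log2 ratio was 1.66, against 0.64, 0.84 and 0.37 at ATF3, DUSP4 and IGF2BP3. Genes of like covered length in shCTR cells were not set apart in this comparison. In replicate 1 the median over 4475 genes was -0.08, against -0.10, 0.01 and -0.49. By number of peaks the IGF2BP3 mean was 0.32, and with a score of at least 100 the DUSP4 mean was -0.03, each of the other sign.

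Scores of the main H3K27me3 peaks also differed between the replicates. In replicate 1 they were lower in shPHF19L#4 than in shCTR cells, 957.98 at ATF3, 1055.28 at DUSP4 and 1153.28 at IGF2BP3. In replicate 2 all 3 main peaks had a score of 3100.00 in shPHF19L#4 cells, higher than in shCTR cells at ATF3 and DUSP4 and equal at IGF2BP3. That value was shared by 719 peaks of the shPHF19L#4 list, with 57 above it, and by 2 of the shCTR list. Scores are not scaled between lists.

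**Figure D4:**
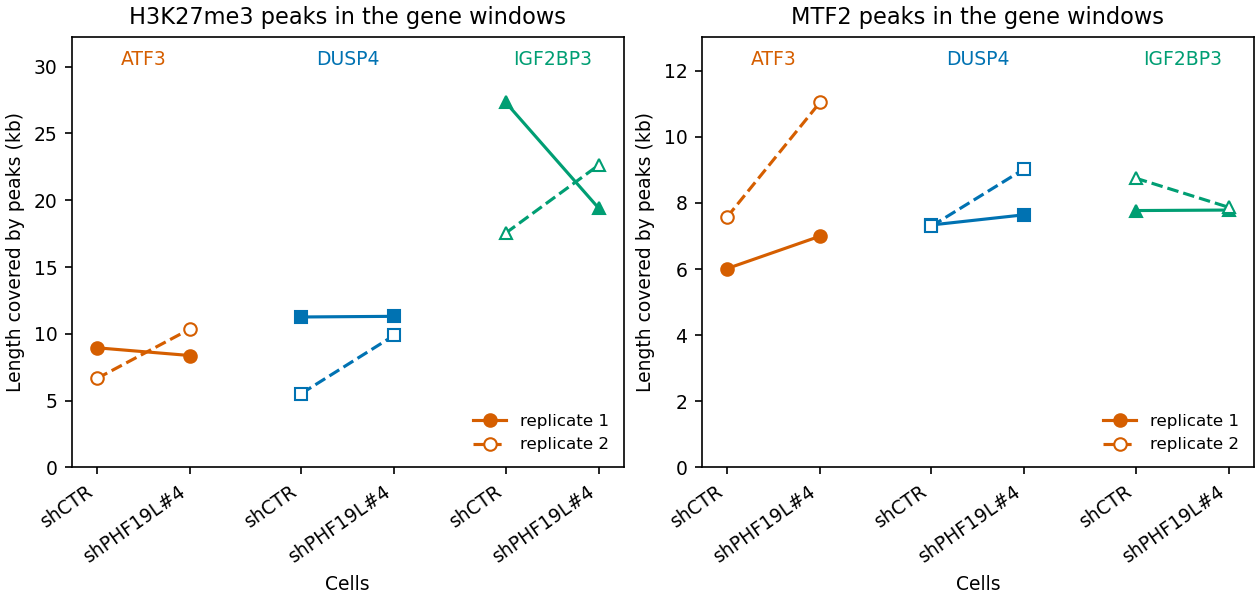
Length covered by H3K27me3 peaks (left) and MTF2 peaks (right) in the window of each gene, in kb, in shCTR and shPHF19L#4 cells, with a line for each replicate (filled and solid for replicate 1, open and dashed for replicate 2). H3K27me3 lines of replicate 2 rise at all 3 genes, by 1.55 times at ATF3, 1.79 times at DUSP4 and 1.29 times at IGF2BP3, and those of replicate 1 are level or fall.

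The length covered by MTF2 peaks changed least at IGF2BP3. It went from 7768 to 7783 bp in replicate 1 and from 8747 to 7867 bp in replicate 2. At ATF3 it went from 6013 to 6992 bp and from 7570 to 11037 bp, and at DUSP4 from 7332 to 7640 bp and from 7296 to 9027 bp, longer after depletion in both replicates. The mean log2 ratios were 0.38 ± 0.23 at ATF3, 0.18 ± 0.18 at DUSP4 and -0.08 ± 0.11 at IGF2BP3 (SD, n = 2). The shorter IGF2BP3 length in replicate 2 rested on a weak shCTR peak inside the gene (99.52). With a score of at least 100 the replicate 2 lengths went from 7545 to 7867 bp at IGF2BP3, a log2 ratio of 0.06. By number of peaks the DUSP4 value was -0.29, of the other sign than by length, since neighbouring peaks had merged in replicate 2. Over all genes with MTF2 peaks in both groups the median was 0.38 in replicate 1 and 0.20 in replicate 2.

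The leading PHF19 regions of the 3 genes differed in CpG density, whereas those of ATF3 and IGF2BP3 were alike in GC content and in their densest stretch. CpG density was 3.47 per 100 bp at ATF3, 5.04 at IGF2BP3 and 6.83 at DUSP4, which placed them at the percentiles 26.3, 48.0 and 77.1 of all 1245 regions (median 5.14). GC content was 52.1%, 52.8% and 58.9%. The CpG of the IGF2BP3 and DUSP4 regions was concentrated in the central 1 kb, with 9.8 and 11.3 per 100 bp (percentiles 84.8 and 92.4), while that of ATF3 held 1.5 (percentile 10.8). The densest 200 bp of the ATF3 and IGF2BP3 regions, shown above, held 27 CpG each, and 54.5% of all PHF19 regions had a stretch at least as dense. The densest stretch at DUSP4 held 33. A high PHF19 difference thus went with CpG density below the median at ATF3 and above it at DUSP4. The 49 regions above the threshold had a median CpG density of 5.19, and across all 1245 regions the Spearman correlation of CpG density was -0.04 with the difference over input and 0.23 with the ChIP concentration.

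**Figure D5:**
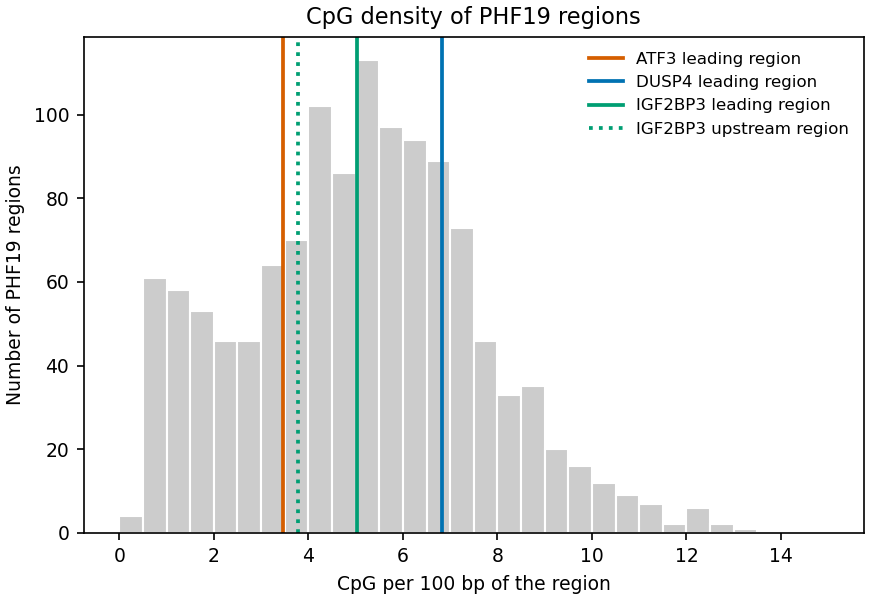
Number of PHF19 regions (vertical) by CpG per 100 bp of the region (horizontal), with lines for the regions of ATF3 (3.47), IGF2BP3 (5.04, and dotted 3.78 for its upstream region) and DUSP4 (6.83). The lines lie on both sides of the median of 5.14.

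Families of the 3 genes were looked up in the same tables, and the counts are given without the gene that was picked for its PHF19 region. Of the 27 other genes of the ATF/CREB and AP-1 families, 1 (3.70%) had a PHF19 region in its window, against 5.55% of protein-coding genes. It was CREB5, a CRE-binding factor, with a difference over input of 1.27, an EZH2 change of 0.83 and an MTF2 change of 0.71. Of the 22 other dual-specificity phosphatases, 2 (9.09%) had a PHF19 region, DUSP15 (1.63) and the ERK phosphatase DUSP6 (1.15). DUSP15 had an EZH2 change of 1.16 and DUSP6 had no region in the other tables. EZH2 regions were listed at 4 of the 22 (18.2%, against 11.5% of protein-coding genes), and all 4 were at least 2-fold higher after depletion. Over all protein-coding genes with an EZH2 region, that share was 77.4%.

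Of the 20 other genes of the IGF2 mRNA-binding proteins and the IGF axis, 5 (25%) had a PHF19 region, against 5.55% of protein-coding genes. They were the receptor IGF1R (2.47), the paralog IGF2BP1 (2.45), the growth factor IGF2 (2.12) and the binding proteins IGFBP3 (1.99) and IGFBP5 (1.53). Like the other families, this list was drawn up with earlier results of these data known, so its shares are no independent evidence. Gene length, which sets the length of the window, was not taken into account. EZH2 regions were listed at 10 of the 20, against 11.5% of protein-coding genes, and 7 of the 10 were at least 2-fold higher, against 77.4%. MTF2 regions were listed at 9, against 10.9%, and 3 of the 9 were at least 2-fold higher, against 31.8%. EZH2 changes were 0.81 at IGF1R and 0.82 at IGF2BP1, and 1.19 at IGF2, the gene of these 5 with regions in all 5 tables. The window of 2.5 kb did not take in the H3K27me3 region of IGF2, so that region may belong to another gene.

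ATF3 and DUSP4 also belong to the sites for which ChIP-qPCR primers were designed, a list drawn up with these ChIP-seq data known and so no independent evidence. Of its 7 other genes, 6 had a PHF19 region, against 5.55% of protein-coding genes, among them MLLT6 at 3.11, the vitamin D hydroxylase CYP24A1 at 2.5, IGFBP3 at 1.99, the ephrin EFNA3 at 1.96 and the HIF prolyl hydroxylase EGLN3 at 1.77. MLLT6, whose difference was nearest to that of DUSP4 among these, had an EZH2 change of 0.74 and an MTF2 change of 0.75. GATA2, a negative control of the assay, had no PHF19 region.

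By the 6 mean concentrations of PHF19, input, EZH2 and MTF2 in the tables, the genes most like each of the 3 were searched among 887 others with regions in those tables. For ATF3 these were GFI1 (Euclidean distance 0.85), BMP4 (0.88) and DUSP4 (0.89), against a median distance of 4.41. The window of its neighbour GARIN4 took in the same regions as ATF3 and was set aside. For DUSP4 they were BMP4 (0.43), MAFA (0.53) and IRX5 (0.55), and for IGF2BP3 they included EMX1 (0.94) and MECOM (1.00). Small changes were not particular to the 3 genes. MECOM had a PHF19 difference of 3.34, an EZH2 change of 0.49 and an MTF2 change of 0.44, both smaller than at DUSP4 (0.53 and 0.48). At GFI1, BMP4, MAFA, IRX5 and EMX1 the EZH2 changes ran from 0.77 (EMX1) to 0.98 (MAFA). Their MTF2 changes ran from 0.55 (BMP4) to 0.78 (IRX5). The distances rest on values that the rule used and are a description.

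Other annotated genes in the windows were 4 at ATF3, 2 at DUSP4 and 7 at IGF2BP3. The 2 lncRNA genes upstream of DUSP4 had peaks in 14 of 14 lists, and ENSG00000289109 upstream of IGF2BP3 in 12 of 14, so peaks there cannot be assigned to 1 gene. MALSU1, a protein-coding gene at the 3′ end of IGF2BP3, had a peak in 2 of 14, in the part of MALSU1 outside the window. At ATF3, RP11-61J19.4 had peaks in 2 of 14 lists and LINC01740, ENSG00000288007 and RN7SL512P in none.

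The cell line was checked here through the mark only. In shCTR cells an H3K27me3 peak covered the start site of 2 of 5 luminal prostate genes in replicate 1 (KLK2 and TMPRSS2) and of 1 in replicate 2 (TMPRSS2). Of 4 epithelial genes it covered none in replicate 1 and EPCAM and CDH1 in replicate 2, with scores of 90.93 and 171.18, and it did not cover that of VIM, a mesenchymal gene. Over all protein-coding genes the shares were 9.39% and 5.46%. These peaks are no measure of expression, which was not analysed here.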

How the data were processed

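ChIP-seq of PHF19, EZH2 and SUZ12 in shCTR cells and of H3K27me3 and MTF2 in shCTR and shPHF19L#4 cells was read from 14 peak lists and 5 tables, with 2 replicates of each. The authors mapped reads with Bowtie to hg19, or to hg19 and the fly genome where spike-in chromatin was added, and ran MACS separately on the replicates with a shift size of 100 bp. Their versions are not given in the sources used here. The deposited score is that of MACS, as the authors obtained it, and is not scaled between lists. The deposited count is the number of tags per peak that the header of the PHF19 list of replicate 1 names, and the MTF2 lists of replicate 1 hold positions alone. The deposited log2 values are mean read concentrations of a group, made by the authors with DiffBind. The Fold, p.value and FDR columns of these tables hold the authors' own comparisons and were not used.

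Windows ran from 20 kb upstream of a gene's start to its end, with genes from GENCODE release 44 mapped to GRCh37, and a peak or region was counted with an overlap of at least 1 bp. Where a window held several regions, the leading PHF19 region was that with the largest difference and the main region of other tables that with the highest shCTR concentration. Covered length was summed over the peaks of a list, and percentiles place tied values in the middle. CpG was counted in the hg19 sequence. No hypothesis was tested, since the tables hold no value per replicate and the peak lists give 2 replicates a group. Ratios of covered length were formed within each replicate number. The calculations were tested on simulated data. Python 3.11.15, numpy 2.4.6, pandas 2.3.3, pysam 0.24.0, samtools 1.23.1 and matplotlib 3.10.9 were used.

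The members and lists were chosen with earlier results of these data known. Genes were named by a rule: the 3 genes, up to 6 genes of each list with a PHF19 region, the neighbours of the threshold, the 3 likest genes and other genes in the windows. Some genes that this rule takes in are not reported here. Likeness was planned over 8 concentrations including SUZ12, and since the 3 genes have no SUZ12 region in the tables, the other 6 were used, a choice made after seeing the data, as were counting families without the 3 genes and taking ratios of covered length from strong peaks or the smaller window. The EZH2 region that was lower, the shared peak edge and the start sites without peaks were singled out once their values were known. Alternatives tried were a window of 2.5 kb, means weighted by width, the region with the longest overlap, other sets of regions to rank against, a score of at least 100, peaks mostly inside the window, each replicate left out, numbers of peaks, the central 1 kb, and observed over expected CpG. Inputs as libraries, IgG, RNA-seq, and the shPHF19L#4 peaks of EZH2, SUZ12 and PHF19 were not analysed here, so the depletion itself was not checked. The paper calls the ChIP-seq replicates biological in its results and figure captions.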

Additional observations from a re-analysis of the deposited data

How the results depend on the processing

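Replicates left out aside, 13 alternative values of the ratios of covered length moved by less than the spread between replicates and 2 moved further. The other main results have no spread between replicates, and 21 of their alternative values were unchanged and 9 differed. With all regions of a window averaged by width, the PHF19 difference at IGF2BP3 was 3.87 (4.04 for the leading region), the EZH2 change at IGF2BP3 0.15 (0.29) and the MTF2 change at DUSP4 0.63 (0.48), because this takes in the weaker neighbouring regions. By number of peaks the log2 ratio of MTF2 was -0.29 at DUSP4 and -0.29 at IGF2BP3. The percentile of CpG density was 10.8 at ATF3, 92.4 at DUSP4 and 84.8 at IGF2BP3 in the central 1 kb, and 25.5, 82.0 and 67.3 by observed over expected CpG. The cause was not tested. With 1 replicate left out, H3K27me3 log2 ratios ranged from -0.10 to 0.64 at ATF3, 0.01 to 0.84 at DUSP4 and -0.49 to 0.37 at IGF2BP3, and MTF2 ratios from 0.22 to 0.54, 0.06 to 0.31 and -0.15 to 0.00. With a score of at least 100, an alternative chosen after seeing the data, the H3K27me3 ratios of replicates 1 and 2 were 0.01 and 0.68 at ATF3, -0.75 and 0.68 at DUSP4 and -0.55 and 0.40 at IGF2BP3, with means of 0.35, -0.03 and -0.07. At each gene the direction in replicate 1 thus depended on the peaks counted or was opposite to that in replicate 2. The MTF2 ratios of replicate 2 with such a score were 0.50, 0.30 and 0.06, the last of the other sign than with all peaks. In the window of 2.5 kb, also chosen afterwards, the H3K27me3 means were 0.27, 0.41 and -0.08. Against the 10% of regions most occupied in shCTR cells, the EZH2 changes lay at the percentiles 2.88 (ATF3), 5.97 (DUSP4) and 0.617 (IGF2BP3), in place of 0.623, 1.99 and 0.104. A score of at least 100 moved 15 of 33 peak counts and 5 of 33 covered lengths by more than 1.5 times, and removed the SUZ12 peak of replicate 1 at ATF3. The window of 2.5 kb moved 7 and 9 of 42, and peaks mostly inside the window 0 of 42. The ratios were formed within replicate numbers, and no test of them, paired or not, was run. Depth is unknown, and scores do not rank the peaks that share 3100.00.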
